A study of Mus musculus with 10 samples.

Results

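ZLN005 and its solvent control, dimethyl sulfoxide (DMSO), were compared in mouse heart cells undergoing cardiac reprogramming, with 2 libraries of polyadenylated RNA in each group, 4 of the 10 libraries of the series. The libraries were taken by their treatment labels, and no measured value entered the choice. All 4 came from primary wild-type cardiac fibroblasts of neonatal hearts (age P1-P3) that carried the factors abbreviated MGT, for Mef2c, Gata4 and Tbx5, and were collected on day 14. Used beside them were 2 libraries of the same cells with MGT and GW501516, 2 of cardiac fibroblasts without the factors (CF, day 14), and 2 of cardiomyocytes (CM, day 3). The titles name the last group cardiomyocytes although other label fields repeat the fibroblast entry. The sources used here give no dose, no treatment length and no route of delivery for the factors. Separate animals or cultures are not named for the replicates, so the p-values rest on differences among libraries that may be technical.

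Forced expression of Mef2c, Gata4 and Tbx5 turns part of a fibroblast culture into cells that switch on sarcomere genes and lose matrix genes. ZLN005 is a small molecule known for raising transcription of Ppargc1a, whose protein PGC1α works with the estrogen-related receptors (ERR) and peroxisome proliferator-activated receptors (PPAR) on genes of mitochondria and fat oxidation. GW501516 acts on the same circuit at another step, as an agonist that binds PPARδ itself.

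The 4 libraries held 53395818 and 49247770 counts with DMSO and 39065969 and 56923512 with ZLN005. Expression is given as CPM, the counts of a gene per 1000000 counts of its library after TMM scaling, and a log2 change is ZLN005 minus DMSO with its standard error. Brackets after the levels of a gene hold this log2 change ± standard error and the adjusted p. A gene is called when its adjusted p from edgeR is under 0.05. Of 15740 genes tested, 2437 were called (15.5 percent), of which 1045 were higher (6.64 percent) and 1392 lower (8.84 percent) with ZLN005. Most changes were small, with a median log2 change of 0.37 among genes called higher and −0.57 among those called lower, and 1303 called genes changed by less than 0.5. Large changes were mostly falls, since 441 called genes fell by more than 1 on the log2 scale (2.8 percent of those tested) and 106 rose by more than 1 (0.673 percent). The 2 replicates of a group correlated at 0.993 with DMSO and 0.992 with ZLN005 (Pearson, log2 CPM). Leaving out a library weakened many calls: 383 of the 1045 and 444 of the 1392 were called without each of the 4 libraries in turn. ZLN005 against GW501516, a comparison that shares the ZLN005 libraries, gave 796 calls (5.06 percent), with 242 higher (1.54 percent) and 554 lower (3.52 percent) with ZLN005. GW501516 against DMSO, which shares the DMSO libraries, gave 2323 (14.8 percent), with 1228 higher (7.8 percent) and 1095 lower (6.96 percent). Most counts of list members are followed by their range over the 4 fits that left out a DMSO or ZLN005 library. The count itself is to be read beside the 6.64 percent higher and 8.84 percent lower of all tested genes. The range is not, since fewer genes were called over all genes in those fits.

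Sums of marker genes were used to check the labelled cell type. Summed CPM of 7 cardiac muscle markers was 4885 and 5046 with DMSO and 7935 and 8369 with ZLN005, with 6 higher and Nppa lower. It was 323 and 492 in CF and 27348 and 27585 in CM. The sum of 7 fibroblast markers went from 13609 and 13233 to 8055 and 8321, with 1 higher and 4 lower. It was 22054 and 24940 in CF and 9852 and 9749 in CM, so the ZLN005 libraries lay below CM in this sum. Most of the sum came from Col1a1 and Col1a2, with means of 4610 and 2484 CPM with ZLN005 and 5176 and 3699 in CM. The sum therefore describes mainly type I collagen and says little about the other fibroblast markers. The sum of 8 macrophage markers went from 709.9 and 742 to 102 and 104, and all 8 fell. With GW501516 this sum was 99.3 and 100, so it was not particular to ZLN005. In CF it stood at 2773 and 464, so those 2 libraries differed strongly from each other. Endothelial markers summed to 26.3 and 25.8 against 22.6 and 25.05, and skeletal muscle markers stayed at or under 0.308 in all 4 libraries. Macrophage markers thus fell in the same libraries in which the gene groups below changed, and their part in the other changes was not tested. In these bulk libraries, fewer cells of a type and less RNA per cell cannot be told apart.

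**Figure D1:**
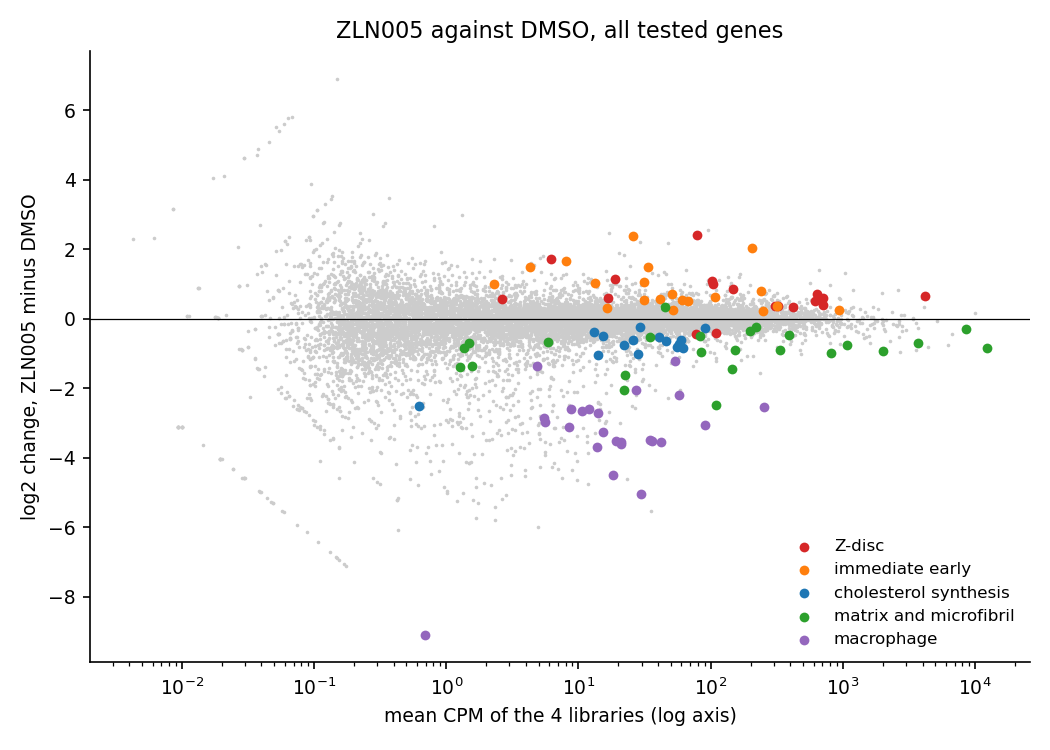
Log2 change of ZLN005 against DMSO (vertical) against mean CPM of the 4 libraries on a log axis (horizontal), 1 point per tested gene. Coloured points are called members of 5 gene lists: Z-disc genes and immediate early genes lie mainly above 0, and cholesterol synthesis, matrix and macrophage genes mainly below. Grey points are all other tested genes.

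**Figure D2:**
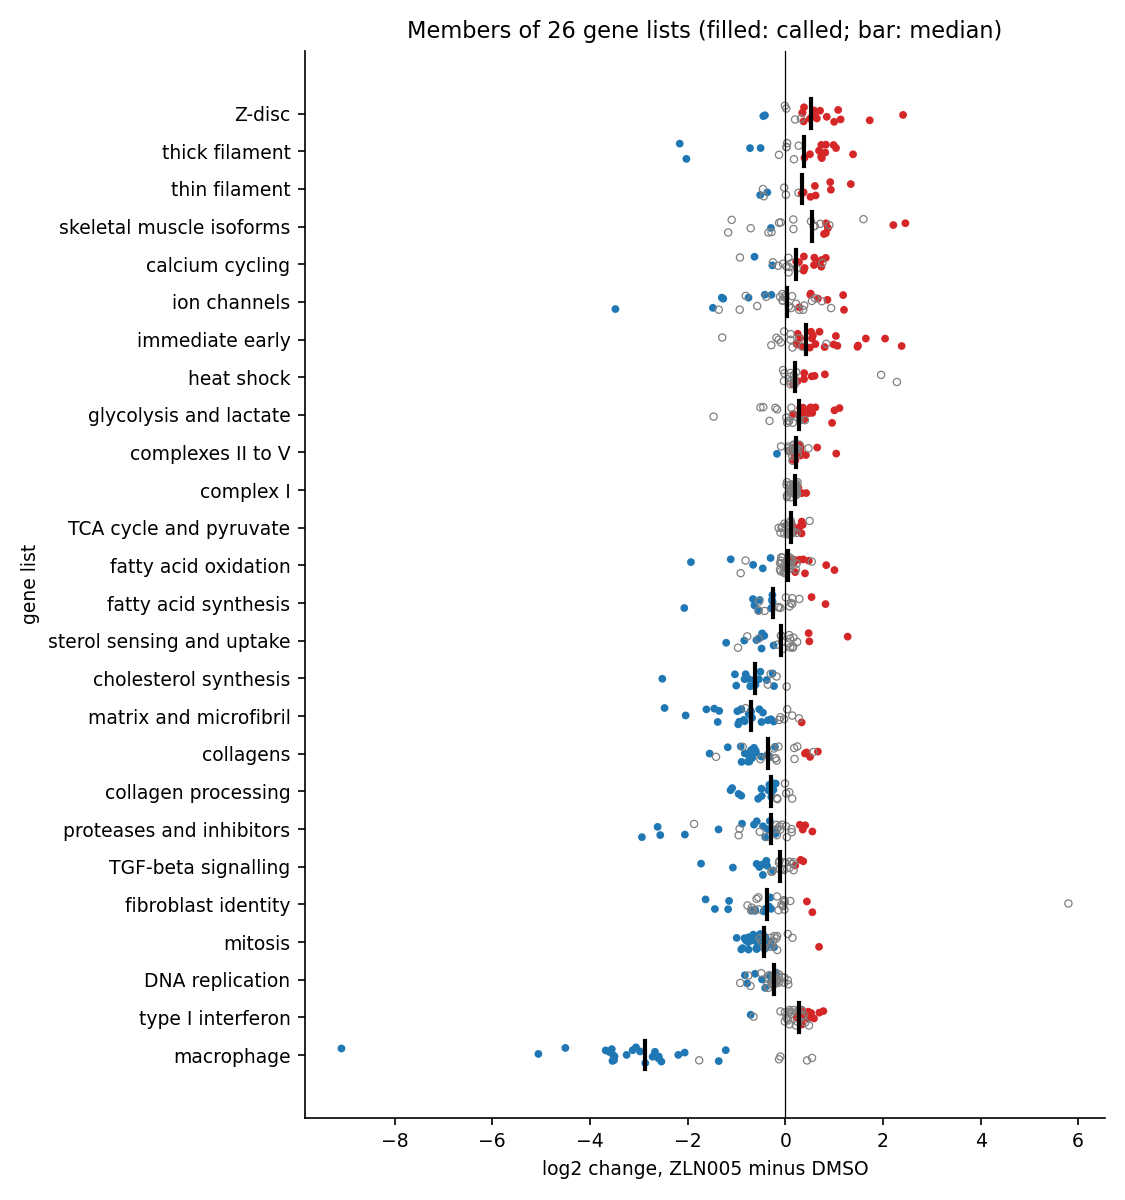
Log2 change of every tested member (points) of 26 gene lists, with the list median (black bar). Filled points were called and open points were not; the macrophage list has the lowest median, −2.87, and skeletal muscle isoforms the highest, 0.56.

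The gene that ZLN005 is meant to raise was low. Ppargc1a stood at 1.99 and 2.38 CPM with DMSO and 4.36 and 3.68 with ZLN005 (0.88 ± 0.18, adjusted p = 0.0096), while CM held 54.8 and 47.99 CPM. Ppargc1b, its paralog, stood at 8.69 and 7.19 CPM with DMSO and 11.8 and 12.7 with ZLN005 (0.62 ± 0.13, adjusted p = 0.00991). The factors that PGC1α proteins coactivate moved unequally. Esrrg, an estrogen-related receptor of oxidative muscle located on GRCm38 at chr1:187608791-188214885, stood at 2.29 and 2.42 CPM with DMSO and 6.76 and 6.86 with ZLN005 (1.53 ± 0.11, adjusted p = 1.8e-05). Its groups did not overlap, as in 61.5 percent of all tested genes. Esrra, another member of that family, stood at 37.8 and 35.1 CPM with DMSO and 44.5 and 40.7 with ZLN005 (0.22 ± 0.07, adjusted p = 0.0449). Of 23 tested genes in a list of PGC1 proteins and their partner factors, 4 rose (2 without a library) and 0 fell. Ppard (30.5 and 32.8 CPM with DMSO and 33.5 and 33.7 with ZLN005, adjusted p = 0.405) and Tfam, the mitochondrial DNA packaging factor (27.3 and 27.7 CPM with DMSO and 29.98 and 29.1 with ZLN005, adjusted p = 0.405), did not pass the test. Calls were lost for Ppargc1a without DMSO replicate 1 (adjusted p = 0.0941) or ZLN005 replicate 1 (adjusted p = 0.083), Ppargc1b without DMSO replicate 2 (adjusted p = 0.0848) or ZLN005 replicate 2 (adjusted p = 0.08), and Esrra without any of the 4 libraries (adjusted p between 0.0649 and 0.285). With limma-voom, Ppargc1a (adjusted p = 0.0513) and Esrra (adjusted p = 0.0616) did not pass.

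Among the reprogramming factors themselves, Gata4 stood at 381 and 377 CPM with DMSO and 453 and 474 with ZLN005 and rose (0.29 ± 0.05, adjusted p = 0.00413). Mef2c (475 and 438 CPM with DMSO and 452 and 507 with ZLN005, adjusted p = 0.583) and Tbx5 (543 and 501 CPM with DMSO and 554 and 565 with ZLN005, adjusted p = 0.222) did not pass, although Tbx5 passed as a rise in fits without either of the CF libraries (0.0365 and 0.0452). The counts do not separate transcripts of the delivered factors from those of the cells' own genes. Of 28 tested cardiac transcription factors and partners, 6 rose (4 to 5 without a library) and 4 fell (0 to 3). The rises were 21.4 percent of the list and the falls 14.3 percent, against 6.64 and 8.84 percent of all tested genes. Hopx, a homeodomain protein of cardiac muscle without DNA binding, went from 2.79 and 3.14 to 7.81 and 7.17 CPM (1.33 ± 0.14, adjusted p = 0.000189). Srf, the serum response factor of muscle and growth-induced genes, went from 40.99 and 36.7 to 59.8 and 60.5 CPM (0.63 ± 0.08, adjusted p = 0.000766), and the GW501516 libraries held 64.7 and 59.5. Tbx18, a T-box factor of epicardium and sinus node, stood at 234 and 233 CPM with DMSO, 358 and 370.1 with ZLN005 and 238 and 240.2 with GW501516. It rose against DMSO (0.64 ± 0.06, adjusted p = 5.06e-05) and was higher with ZLN005 than with GW501516 (log2 difference 0.60 ± 0.06, adjusted p = 0.00013).

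More sarcomere genes rose than fell in the Z-disc, thick filament and thin filament lists. Of 22 tested Z-disc genes, 16 rose (12 to 13 without a library) and 2 fell (2), with a median log2 change of 0.53 against 0.00 over all tested genes. Thick filament genes gave 11 of 21 higher (9 to 10) and 4 lower (1 to 4). Thin filament genes gave 8 of 15 higher (4 to 5) and 2 lower (0 to 1). Csrp3, the muscle LIM protein of the Z-disc (GRCm38 chr7:48830398-48848033, minus strand), stood at 24.8 and 25.2 CPM with DMSO, 133 and 133 with ZLN005 and 46.5 and 51.1 with GW501516. Its ZLN005 libraries lay above all others of the reprogramming cells (2.41 ± 0.06, adjusted p = 7.29e-09 against DMSO, and 1.45 ± 0.05, adjusted p = 1.75e-07 against GW501516), while CM held 587 and 580.0 CPM. Smpx, a small stretch-responsive muscle protein, went from 68.3 and 71.01 to 145 and 134 CPM (1.002 ± 0.05, adjusted p = 1.23e-06) and was also above GW501516 (0.27 ± 0.05, adjusted p = 0.00941). Synpo2l, an actin-associated Z-disc protein, went from 105 and 104 to 187 and 189.7 CPM (0.85 ± 0.05, adjusted p = 2.67e-06; 0.33 ± 0.05, adjusted p = 0.00268 against GW501516). Myoz2, which tethers calcineurin at the Z-disc, stood at 12.5 and 11.3 CPM with DMSO and 25.9 and 26.3 with ZLN005 (1.14 ± 0.09, adjusted p = 3.56e-05). Ankrd1, a stretch-responsive titin partner with the largest rise in CPM of any gene that met the naming rule, stood at 3246 and 3271 CPM with DMSO and 5006 and 5205 with ZLN005 (0.65 ± 0.11, adjusted p = 0.00332). The 2 Z-disc genes that fell were Synpo2, from 91.6 and 86.4 to 62.9 and 67.3 CPM (−0.45 ± 0.06, adjusted p = 0.00111), and Pgm5, a phosphoglucomutase relative of adhesion sites, from 125 and 127 to 93.7 and 94.98 (−0.41 ± 0.06, adjusted p = 0.00127).

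The light chains of myosin split by chamber. Myl7, the atrial regulatory light chain, stood at 818 and 884 CPM with DMSO and 1532 and 1497 with ZLN005 (0.83 ± 0.07, adjusted p = 3.34e-05). Myl4, the atrial and fetal essential light chain, stood at 1834 and 1943 CPM with DMSO and 3398 and 3267 with ZLN005 (0.82 ± 0.14, adjusted p = 0.00379). Their ventricular counterparts went the other way from levels that were already low. Myl2 stood at 5.27 and 5.34 CPM with DMSO and 1.14 and 1.42 with ZLN005 (−2.02 ± 0.21, adjusted p = 0.000153). Myl3 stood at 1.81 and 2.04 CPM with DMSO and 0.644 and 0.274 with ZLN005 (−2.16 ± 0.39, adjusted p = 0.00482). CM held 1514 and 1527 CPM of Myl2. Myh6, the alpha myosin heavy chain, stood at 373 and 358 CPM with DMSO, 918 and 997 with ZLN005 and 1517 and 1550.3 with GW501516 (1.39 ± 0.06, adjusted p = 5.08e-07 against DMSO). In each of these 5 genes the DMSO and ZLN005 libraries did not overlap, as in 61.5 percent of all tested genes. Myh7, the beta myosin heavy chain, stood at 4.43 and 3.85 CPM with DMSO and 4.24 and 4.21 with ZLN005 (adjusted p = 0.914) and was lower with ZLN005 than with GW501516 (−0.83 ± 0.08, adjusted p = 0.00024). Tnni3, the cardiac troponin I of mature muscle, went from 47.00 and 48.2 to 93.4 and 88.7 CPM (0.94 ± 0.10, adjusted p = 0.000172). Tnni1, the slow skeletal and fetal troponin I, stood at 2.61 and 3.32 CPM with DMSO and 2.53 and 1.92 with ZLN005 (adjusted p = 0.123). Tnni1 passed as a fall with DESeq2 (adjusted p = 0.0414). Tnnt2, cardiac troponin T, stood at 3069 and 3209 CPM with DMSO and 4604 and 4963 with ZLN005 (0.61 ± 0.17, adjusted p = 0.0363). Tpm1, a tropomyosin, stood at 3616 and 3631 CPM with DMSO and 4517 and 4626 with ZLN005 (0.34 ± 0.10, adjusted p = 0.0421). Calls were lost for Myl3 without ZLN005 replicate 2 (adjusted p = 0.0716), Tnnt2 without any of the 4 libraries (adjusted p between 0.108 and 0.194), and Tpm1 without any of the 4 libraries (adjusted p between 0.127 and 0.196). Tnnt2 did not pass with limma-voom either (adjusted p = 0.0572).

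Single genes that assemble or regulate filaments are given here as examples. Myom2, the M-band protein myomesin 2, went from 372 and 360.4 to 744 and 762 CPM (1.04 ± 0.05, adjusted p = 1.44e-06). Mybpc3, cardiac myosin binding protein C, stood at 51.1 and 51.4 CPM with DMSO and 85.7 and 86.7 with ZLN005 (0.75 ± 0.07, adjusted p = 5.62e-05). Unc45b, a myosin chaperone, went from 12.1 and 12.3 to 19.9 and 20.8 CPM (0.74 ± 0.10, adjusted p = 0.000823). Smyd1, a methyltransferase required for sarcomere assembly, went from 18.1 and 17.4 to 30.5 and 28.7 (0.74 ± 0.08, adjusted p = 0.000176). Abra, an actin-binding activator of Srf signalling in striated muscle, stood at 25.04 and 25.05 CPM with DMSO and 61.1 and 65.9 with ZLN005 (1.34 ± 0.10, adjusted p = 2.55e-05), and CF held 0.0630 and 0.197 CPM. Lmod2, a leiomodin that lengthens thin filaments, stood at 113 and 114 CPM with DMSO and 171 and 178 with ZLN005 (0.62 ± 0.05, adjusted p = 4.61e-05). The MEF2 site was found on either strand in 4 of 18 thick filament and 3 of 18 Z-disc genes with a promoter in the table, against 2.39 percent of 12117 tested genes. It was also found in 1 of 11 thin filament and 4 of 24 immediate early genes, so it was not particular to sarcomere lists. Among called thick filament genes it was found in 2 of 12.

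Several isoforms best known from skeletal muscle rose as well. Of 22 tested, 6 rose (4 without a library) and 1 fell (0). Myl1, an essential light chain, stood at 9.996 and 10.7 CPM with DMSO, 48.1 and 48.1 with ZLN005 and 60.4 and 60.5 with GW501516 (2.21 ± 0.07, adjusted p = 3.89e-08 against DMSO). Myh8, the perinatal myosin heavy chain, stood at 5.36 and 5.10 CPM with DMSO, 26.8 and 30.8 with ZLN005 and 17.2 and 15.5 with GW501516 (2.46 ± 0.24, adjusted p = 0.000111 against DMSO). Tnnt3, the fast troponin T, stood at 19.5 and 21.9 CPM with DMSO, 36.5 and 37.1 with ZLN005 and 51.3 and 48.4 with GW501516 (0.83 ± 0.09, adjusted p = 0.000179 against DMSO). Myog, a factor that defines skeletal muscle, remained between 0.0496 and 0.186 CPM in the 4 libraries. The largest fitted rise of a gene that met the naming rule was in Tpm3-rs7 (29.7 and 26.3 CPM with DMSO and 162 and 166 with ZLN005, 2.55 ± 0.06, adjusted p = 7.29e-09), a sequence related to a tropomyosin gene. Rpl26, a ribosomal protein gene, also rose (16.1 and 18.7 CPM with DMSO and 82.02 and 74.02 with ZLN005, 2.16 ± 0.08, adjusted p = 1.11e-07). Both genes have near-identical copies, and the counting of reads that such copies share is not stated, so these values are uncertain. Of 71 cytosolic ribosome genes 2 rose and 1 fell.

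Calcium handling and excitation genes changed in part. Of 24 calcium cycling genes, 11 rose (7 to 8 without a library) and 2 fell (1 to 2). The rises were 45.8 percent against 6.64 percent of all tested genes, and the falls 8.33 percent, near the 8.84 percent of all tested genes. Atp2a2, the calcium pump of the sarcoplasmic reticulum, stood at 1509 and 1468 CPM with DMSO and 2477 and 2496 with ZLN005 (0.74 ± 0.05, adjusted p = 1.35e-05). Trdn, which anchors calsequestrin to the ryanodine receptor, went from 194 and 205 to 357 and 354 CPM (0.83 ± 0.05, adjusted p = 2.08e-06). Ryr2, that receptor, went from 293 and 268 to 417 and 432 (0.60 ± 0.08, adjusted p = 0.000647). Sln, an atrial inhibitor of the calcium pump, went from 190.0 and 201 to 329.9 and 324 CPM (0.74 ± 0.05, adjusted p = 9.23e-06). Srl, the sarcoplasmic reticulum protein sarcalumenin, rose from 45.2 and 46.03 to 72.5 and 75.5 (0.70 ± 0.04, adjusted p = 6.26e-06) but stayed below its 119 and 122 CPM with GW501516 (−0.70 ± 0.04, adjusted p = 7.33e-06). Ion channels were evenly divided, with 7 of 36 higher (4 to 6) and 7 lower (2 to 5). Each direction held 19.4 percent of the channels, against 6.64 percent higher and 8.84 percent lower of all tested genes. Kcnj5, a subunit of the atrial acetylcholine-gated potassium channel, stood at 98.8 and 98.1 CPM with DMSO and 229 and 224 with ZLN005 (1.20 ± 0.09, adjusted p = 2.55e-05). Cacna1g, a T-type calcium channel of pacemaker tissue, fell from 3.70 and 2.98 to 1.26 and 1.49 (−1.27 ± 0.18, adjusted p = 0.00116). Popdc2, a membrane protein that binds cAMP, went from 82.9 and 82.3 to 185 and 191 CPM (1.19 ± 0.07, adjusted p = 2.17e-06). At the intercalated disc 7 of 18 genes rose (4) and 0 fell. Gja1, the gap junction protein connexin 43, stood at 225 and 234 CPM with DMSO, 342 and 343 with ZLN005 and 286 and 284 with GW501516 (0.58 ± 0.06, adjusted p = 0.000107 against DMSO, and 0.27 ± 0.06, adjusted p = 0.0227 against GW501516).

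Of 18 genes of natriuretic peptides, cardiac receptors and their enzymes, 4 rose (2 to 3 without a library), 2 fell (2) and 12 did not pass. Rises made up 22.2 percent and falls 11.1 percent of the list, against 6.64 and 8.84 percent of all tested genes. Nppa, the atrial natriuretic peptide, fell from 12.3 and 14.8 to 5.05 and 4.41 CPM (−1.53 ± 0.12, adjusted p = 2.73e-05), and Nppb stood at 1.71 and 1.55 CPM with DMSO and 1.24 and 1.59 with ZLN005 (adjusted p = 0.516). Adora1, the adenosine A1 receptor of atrium and conduction tissue, stood at 4.88 and 4.74 CPM with DMSO, 8.77 and 8.32 with ZLN005 and 2.51 and 2.86 with GW501516, higher than DMSO with ZLN005 (0.83 ± 0.10, adjusted p = 0.000363) and lower than DMSO with GW501516 (−0.84 ± 0.11, adjusted p = 0.0006). Rxfp1, the relaxin receptor, went from 95.4 and 96.9 to 182 and 189 CPM (0.95 ± 0.06, adjusted p = 3e-06). Adra1b, an alpha-1 adrenergic receptor, fell from 4.88 and 5.90 to 2.82 and 2.94 (−0.90 ± 0.15, adjusted p = 0.00281). Gpx3, a secreted glutathione peroxidase, stood at 1469.5 and 1497 CPM with DMSO and 1875 and 1899 with ZLN005 (0.35 ± 0.08, adjusted p = 0.0127), a call lost for Gpx3 without any of the 4 libraries (adjusted p between 0.0527 and 0.103). Other genes with large rises under the naming rule were those of Car14, Ecel1 and Kcnf1. Car14, a membrane carbonic anhydrase of heart muscle, stood at 8.45 and 8.62 CPM with DMSO and 32.8 and 30.5 with ZLN005 (1.89 ± 0.08, adjusted p = 3.25e-07). Ecel1, a membrane peptidase of the neprilysin family, stood at 9.79 and 9.59 CPM with DMSO and 34.3 and 34.4 with ZLN005 (1.82 ± 0.09, adjusted p = 9.14e-07). Kcnf1, a silent potassium channel subunit, stood at 2.35 and 2.36 CPM with DMSO and 7.46 and 8.18 with ZLN005 (1.73 ± 0.24, adjusted p = 0.00108).

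**Figure D3:**
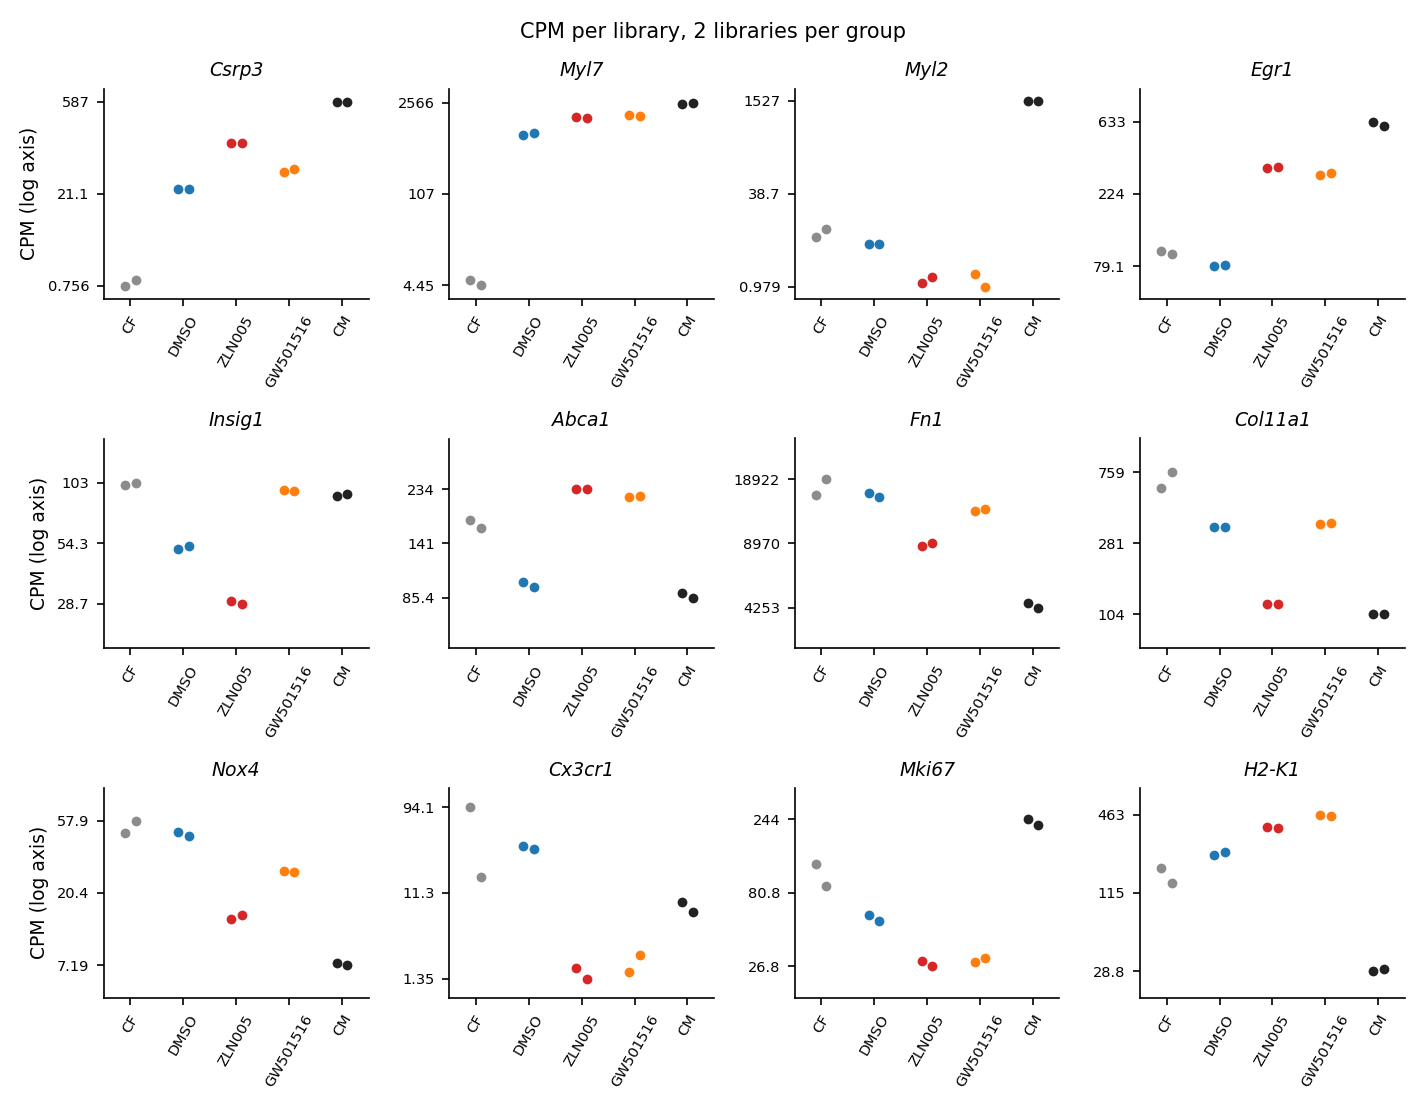
CPM on a log axis in every library of the 5 groups for 12 genes, 1 panel per gene and 1 point per library. With ZLN005 the values of Csrp3, Myl7, Egr1 and Abca1 lie above those with DMSO, and those of Myl2, Insig1, Col11a1, Nox4, Cx3cr1 and Mki67 lie below.

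Immediate early genes, which growth signals, stretch and calcium switch on within minutes without new protein synthesis, rose without a called fall. Of 32 tested, 20 rose (15 to 18 without a library) and 0 fell, with a median log2 change of 0.43. Egr1, a zinc-finger factor located on GRCm38 at chr18:34859823-34864984, stood at 79.1 and 80.00 CPM with DMSO, 326 and 331 with ZLN005 and 292 and 302 with GW501516 (2.04 ± 0.05, adjusted p = 9.17e-09 against DMSO). Its relatives Egr3 (2.29 and 2.24 CPM with DMSO and 6.42 and 6.33 with ZLN005, 1.49 ± 0.06, adjusted p = 4.11e-07) and Egr2 (3.61 and 4.21 CPM with DMSO and 12.02 and 12.5 with ZLN005, 1.65 ± 0.16, adjusted p = 9.61e-05) rose with it. Fos, a subunit of the factor AP-1, stood at 8.23 and 8.42 CPM with DMSO, 43.9 and 43.1 with ZLN005 and 34.9 and 38.5 with GW501516 (2.38 ± 0.15, adjusted p = 5.87e-06 against DMSO). Nr4a1, an orphan nuclear receptor, stood at 17.2 and 18.04 CPM with DMSO, 49.1 and 49.1 with ZLN005 and 37.8 and 36.5 with GW501516 and was higher with ZLN005 than with either other treatment (1.48 ± 0.08, adjusted p = 1.5e-06 against DMSO, and 0.40 ± 0.07, adjusted p = 0.00997 against GW501516). Klf4, a zinc-finger factor, rose from 25.6 and 25.6 to 37.6 and 36.3 CPM (0.53 ± 0.07, adjusted p = 0.000558) and stood at 27.4 and 25.2 with GW501516 (0.49 ± 0.07, adjusted p = 0.00181). Dusp1, the phosphatase that switches off MAP kinases, went from 48.2 and 50.9 to 72.1 and 72.7 CPM (0.55 ± 0.07, adjusted p = 0.000911). Atf3 (16.2 and 17.5 CPM with DMSO and 30.3 and 30.03 with ZLN005, adjusted p = 0.0807) and Myc (17.2 and 16.04 CPM with DMSO and 15.4 and 15.9 with ZLN005, adjusted p = 0.649) did not pass. Omitting 1 CF library gave Atf3 an adjusted p of 1.85e-09 (replicate 1) and 2.05e-09 (replicate 2), which passed. The CArG box, to which SRF binds, was found in 3 of 24 immediate early genes with a promoter in the table, against 1.62 percent of 12117 tested genes. It was also found in 4 of 18 thick filament, 1 of 11 thin filament and 1 of 18 Z-disc genes. In CM, 30 of the 32 immediate early genes were higher than in CF, against 34.5 percent of all tested genes. Day and cell type differ together in that comparison. Heat shock genes gave 7 of 21 higher (2 to 4 without a library) and 0 lower, among them Dnajb5, a cochaperone (32.2 and 31.4 CPM with DMSO and 50.2 and 46.4 with ZLN005, 0.60 ± 0.07, adjusted p = 0.000502).

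Cholesterol synthesis fell along nearly its whole length. The pathway builds sterols from acetyl-CoA, and its genes are switched on together by SREBP2, the product of Srebf2, when sterol in the endoplasmic reticulum runs low. Of 19 tested enzymes, 15 fell (11 to 14 without a library) and 0 rose, with a median log2 change of −0.61. Against GW501516, 17 of the 19 were lower with ZLN005 (background 554 of 15740 genes, 3.52 percent), and the median change of GW501516 against DMSO was 0.34. Both medians use the same DMSO libraries.

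The promoters of 3 of these sterol genes are shown because they hold the CCAAT box, the letters CCAAT bound by the factor NF-Y, which works beside SREBP2 at sterol promoters. Each sequence runs 5′ to 3′ from 250 bases before to 50 after the start of the gene (RefSeq, GRCm38.p6), with CCAAT, or ATTGG where it lies on the other strand, in capitals.
Hmgcs1, chr13:119690101-119690400, plus strand: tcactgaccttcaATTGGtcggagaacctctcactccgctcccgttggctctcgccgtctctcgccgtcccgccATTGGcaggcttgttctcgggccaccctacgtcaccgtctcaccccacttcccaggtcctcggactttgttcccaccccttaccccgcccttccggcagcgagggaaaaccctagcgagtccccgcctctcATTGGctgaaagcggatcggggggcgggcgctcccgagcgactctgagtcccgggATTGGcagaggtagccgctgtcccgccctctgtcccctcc
Insig1, chr5:28071162-28071461, plus strand: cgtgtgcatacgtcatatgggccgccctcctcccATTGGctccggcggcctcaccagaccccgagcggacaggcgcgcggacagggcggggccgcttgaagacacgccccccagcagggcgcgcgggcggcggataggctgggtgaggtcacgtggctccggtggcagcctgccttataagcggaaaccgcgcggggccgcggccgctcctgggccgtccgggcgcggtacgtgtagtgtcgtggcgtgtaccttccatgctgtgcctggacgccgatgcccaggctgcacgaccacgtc
Idi1, chr13:8885356-8885655, plus strand: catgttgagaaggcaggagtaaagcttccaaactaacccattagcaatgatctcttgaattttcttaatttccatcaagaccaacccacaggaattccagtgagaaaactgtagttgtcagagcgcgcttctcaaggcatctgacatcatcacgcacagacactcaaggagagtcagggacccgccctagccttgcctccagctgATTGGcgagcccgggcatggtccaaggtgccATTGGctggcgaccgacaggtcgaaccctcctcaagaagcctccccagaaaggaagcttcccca
Promoters were found for 14 of the enzymes, and 13 of the 14 held CCAAT on either strand. That compares with 42.1 percent of 12117 tested genes and 37.4 percent of all 32851 promoters of the table. The sterol response element TCACNCCAC was found in 1 of the 14, against 1.43 percent of tested genes. A match is a description of the letters and not a binding site, and no match says only that these letters are not in the window.

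Enzymes are given in the order of the pathway. Hmgcs1, the synthase of HMG-CoA, stood at 69.8 and 73.6 CPM with DMSO, 45.3 and 42.1 with ZLN005 and 111 and 104 with GW501516 (−0.72 ± 0.06, adjusted p = 3.6e-05 against DMSO). Idi1, the isomerase of isopentenyl diphosphate, stood at 17.03 and 20.7 CPM with DMSO, 9.22 and 9.22 with ZLN005 and 29.1 and 30.1 with GW501516 (−1.03 ± 0.10, adjusted p = 0.000118 against DMSO). In both genes the ZLN005 libraries were the lowest of the 6. Sqle, the squalene epoxidase, went from 55.2 and 55.7 to 35.7 and 35.8 CPM (−0.63 ± 0.06, adjusted p = 9.62e-05) with 79.04 and 83.9 under GW501516. Cyp51, the lanosterol demethylase, went from 68.6 and 72.5 to 41.9 and 38.8 (−0.81 ± 0.07, adjusted p = 5.52e-05) with 103 and 104 under GW501516. Sc5d, a late desaturase of the sterol ring, went from 70.3 and 72.8 to 46.2 and 47.5 (−0.61 ± 0.05, adjusted p = 2.84e-05) with 84.4 and 82.8 under GW501516.

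Of 27 genes of sterol sensing, uptake and export, 8 fell (6 to 7 without a library), 3 rose (3) and 16 did not pass. Insig1, which holds the SREBP proteins back when sterol is plentiful and is itself one of their targets, stood at 51.1 and 52.96 CPM with DMSO, 29.5 and 28.7 with ZLN005 and 95.9 and 94.3 with GW501516 (−0.84 ± 0.04, adjusted p = 1.52e-06 against DMSO). Srebf2 stood at 103 and 102 CPM with DMSO, 68.5 and 67.9 with ZLN005 and 112 and 120.1 with GW501516 (−0.59 ± 0.05, adjusted p = 2.46e-05 against DMSO). Stard4, a sterol carrier, went from 51.2 and 47.7 to 35.4 and 37.98 CPM (−0.43 ± 0.06, adjusted p = 0.00121). Scarb1, the HDL receptor, went from 28.4 and 26.2 to 19.8 and 18.9 (−0.50 ± 0.08, adjusted p = 0.00229). Abca1, which exports cholesterol to lipid-poor apolipoprotein, stood at 98.6 and 94.5 CPM with DMSO, 234 and 234 with ZLN005 and 218 and 219.9 with GW501516 (1.28 ± 0.05, adjusted p = 1.47e-07 against DMSO), and the GW501516 libraries lay above DMSO as well (1.18 ± 0.05, adjusted p = 2.12e-07). Abcg1, which exports to HDL, stood at 15.8 and 14.3 CPM with DMSO, 20.5 and 21.97 with ZLN005 and 13.4 and 14.2 with GW501516 and was above GW501516 as well (0.49 ± 0.09, adjusted p = 0.00397 against DMSO, and 0.62 ± 0.09, adjusted p = 0.00212 against GW501516). Vldlr, a receptor for triglyceride-rich particles, rose from 204 and 203 to 284 and 284 (0.48 ± 0.05, adjusted p = 0.000178). Mylip, a ubiquitin ligase that liver X receptors induce, stood at 16.05 and 14.8 CPM with DMSO and 16.7 and 18.00 with ZLN005 (adjusted p = 0.304).

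**Figure D4:**
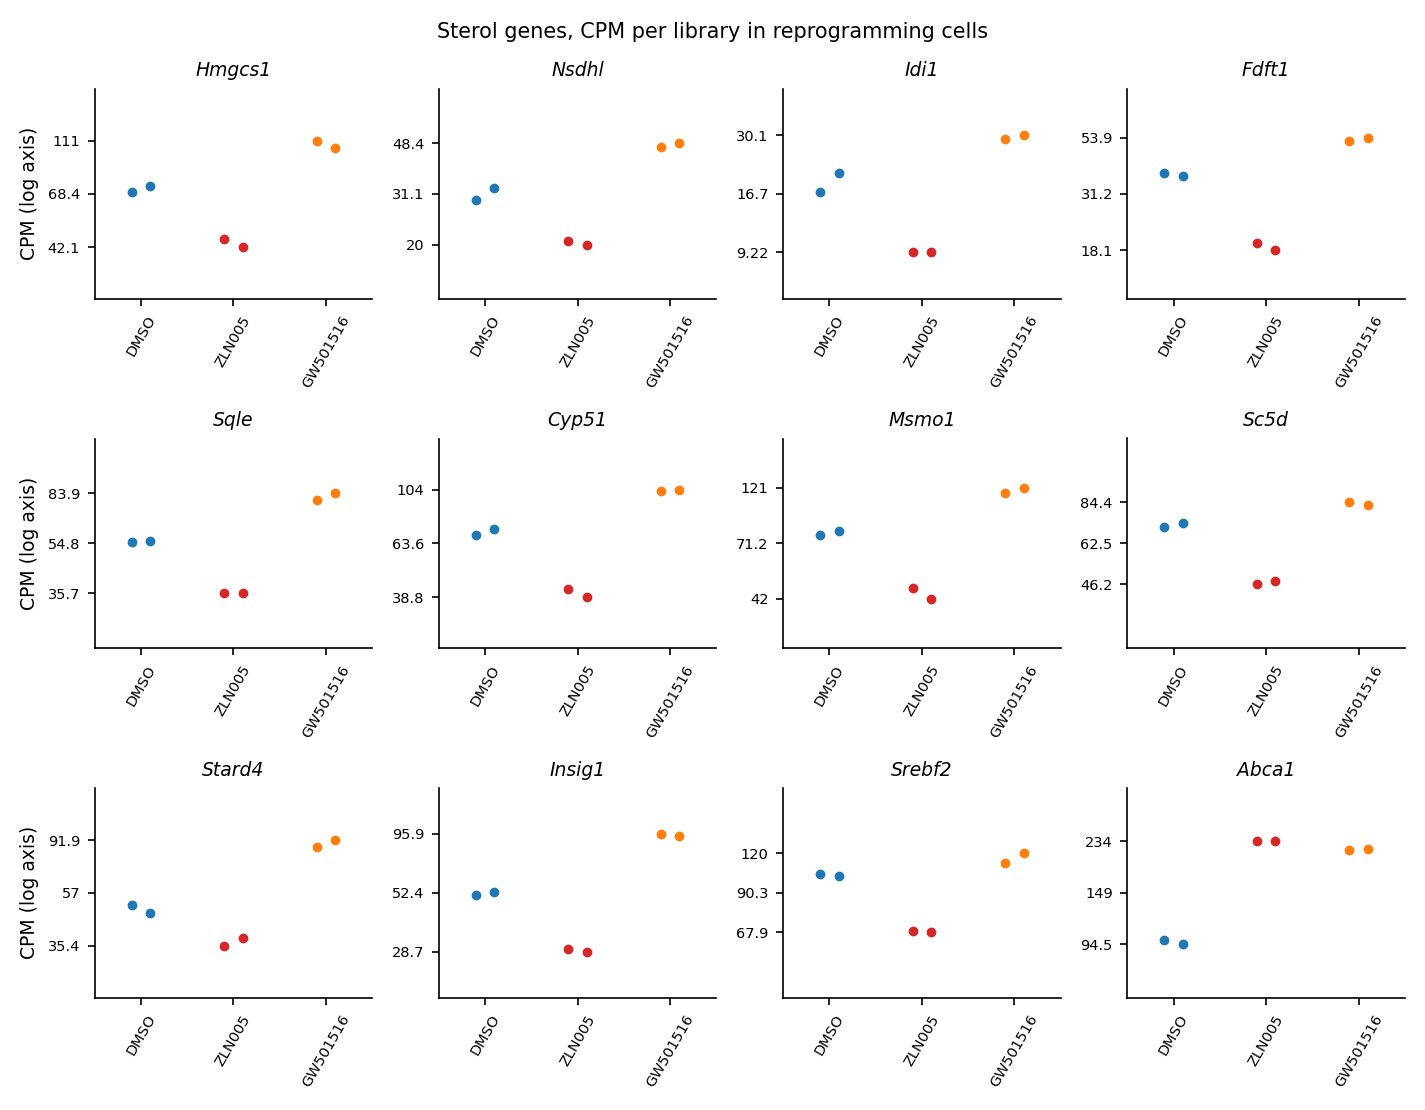
CPM on a log axis of 12 sterol genes in the 6 libraries of reprogramming cells (DMSO, ZLN005 and GW501516; 1 point per library). For the synthesis genes and Stard4, Insig1 and Srebf2 the ZLN005 points are lowest, and for Abca1 the DMSO points are lowest.

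Fatty acid synthesis changed in part. Of 23 genes, 9 fell (6 to 7 without a library) and 2 rose (1 to 2). The study's title names Scd1, the stearoyl-CoA desaturase, which stood at 74.5 and 72.2 CPM with DMSO, 77.7 and 81.4 with ZLN005 and 130.1 and 130.0 with GW501516 and did not pass against DMSO (0.12 ± 0.07, adjusted p = 0.284). Scd1 passed as a rise when only the DMSO and ZLN005 groups were fitted (adjusted p = 0.0465) or the 3 reprogramming groups (0.0257). Its paralog Scd2 did fall, at 215 and 201 CPM with DMSO, 129.6 and 133 with ZLN005 and 331 and 337 with GW501516 (−0.66 ± 0.05, adjusted p = 1.36e-05 against DMSO, and −1.35 ± 0.05, adjusted p = 1.54e-07 against GW501516). Fads1, like Fads2 a desaturase of polyunsaturated fatty acids, stood at 127 and 128 CPM with DMSO and 87.7 and 86.5 with ZLN005 (−0.55 ± 0.05, adjusted p = 3.38e-05). Fads2 stood at 56.2 and 57.9 CPM with DMSO and 37.9 and 35.8 with ZLN005 (−0.63 ± 0.05, adjusted p = 3.97e-05). Acly, which supplies cytosolic acetyl-CoA, went from 144 and 149.8 to 121 and 123 CPM (−0.27 ± 0.04, adjusted p = 0.00129). Gpam, which starts triglyceride synthesis, went the other way, from 193 and 185 to 273 and 276 (0.54 ± 0.05, adjusted p = 6.42e-05). Srebf1, the SREBP of fatty acid synthesis, stood at 58.2 and 55.1 CPM with DMSO and 55.8 and 52.3 with ZLN005 (adjusted p = 0.463).

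Genes known as direct targets of PPARδ separated the compounds. Angptl4, a lipoprotein lipase inhibitor, stood at 1.88 and 2.46 CPM with DMSO, 2.998 and 2.43 with ZLN005 and 276 and 269 with GW501516. Pdk4, which shuts pyruvate out of the mitochondrion, stood at 30.5 and 30.97 CPM with DMSO, 33.3 and 33.1 with ZLN005 and 350.0 and 348 with GW501516. Cpt1a, the gate for fatty acids into the mitochondrion, stood at 131 and 137 CPM with DMSO, 142 and 139.9 with ZLN005 and 364 and 369 with GW501516. With ZLN005 none of the 3 passed against DMSO (adjusted p = 0.19, 0.161 and 0.579), except that Pdk4 passed when the 3 reprogramming groups alone were fitted (0.0398). All 3 were lower than with GW501516 (log2 differences −6.67 ± 0.11, adjusted p = 2.66e-10; −3.39 ± 0.05, adjusted p = 1.47e-10; and −1.38 ± 0.07, adjusted p = 1.95e-06). Plin2, a lipid droplet coat protein, stood at 78.1 and 78.9 CPM with DMSO, 80.5 and 75.7 with ZLN005 and 204 and 195 with GW501516 (adjusted p = 0.98 against DMSO). Ucp2, a mitochondrial carrier, fell to 16.8 and 18.8 CPM from 39.1 and 40.3 (−1.15 ± 0.22, adjusted p = 0.00567) and stood at 362 and 369.8 with GW501516. That fall was not called for Ucp2 without ZLN005 replicate 1 (adjusted p = 0.071).

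Fatty acid oxidation moved in part. Of 41 genes, 10 rose (5 to 7 without a library), or 24.4 percent against 6.64 percent of all tested genes. A further 5 fell (2 to 3), or 12.2 percent against 8.84 percent. Of the 41, 24 were lower with ZLN005 than with GW501516 and 2 were higher, against 3.52 and 1.54 percent of all tested genes. Acadl, the long-chain acyl-CoA dehydrogenase, stood at 83.04 and 82.9 CPM with DMSO, 115 and 117 with ZLN005 and 269.9 and 259 with GW501516 (0.48 ± 0.05, adjusted p = 0.000105 against DMSO, and −1.19 ± 0.05, adjusted p = 2.55e-07 against GW501516). Acadm, its medium-chain counterpart, stood at 74.96 and 77.9 CPM with DMSO, 98.7 and 104 with ZLN005 and 111 and 112 with GW501516 (0.41 ± 0.06, adjusted p = 0.00113 against DMSO, and −0.14 ± 0.06, adjusted p = 0.226 against GW501516). Fabp3, the heart fatty acid binding protein, rose from 16.5 and 15.5 to 29.1 and 28.2 CPM (0.84 ± 0.07, adjusted p = 3.56e-05). Cd36, the fatty acid transporter, fell from 17.8 and 19.97 to 8.33 and 9.03 (−1.12 ± 0.18, adjusted p = 0.00288), and macrophages also express Cd36. Cidea, a lipid droplet protein, rose from 0.391 and 0.383 to 1.31 and 1.59 CPM (1.91 ± 0.19, adjusted p = 0.000118) but stayed under its 9.66 and 9.74 CPM with GW501516 (−2.73 ± 0.16, adjusted p = 4.47e-06).

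Part of the genes of glucose use rose. Of 30 genes of glycolysis and lactate transport, 15 rose (8 to 9 without a library) and 0 fell. Slc2a4, the insulin-responsive glucose transporter GLUT4 of muscle and fat, went from 8.36 and 9.49 to 17.5 and 17.2 CPM (0.96 ± 0.15, adjusted p = 0.00196). Hk2, the muscle hexokinase, stood at 111 and 113 CPM with DMSO, 165 and 164 with ZLN005 and 110.3 and 109 with GW501516 and exceeded GW501516 (0.55 ± 0.09, adjusted p = 0.00228 against DMSO, and 0.59 ± 0.09, adjusted p = 0.00323 against GW501516). Eno3, the muscle enolase, went from 58.1 and 62.1 to 132 and 128 CPM (1.11 ± 0.09, adjusted p = 3.34e-05). Pgam2, the muscle phosphoglycerate mutase, went from 109.7 and 114 to 171 and 173 (0.62 ± 0.11, adjusted p = 0.00417). Ldha, the lactate dehydrogenase subunit of glycolytic tissue, stood at 383 and 378 CPM with DMSO and 498 and 503 with ZLN005 (0.39 ± 0.06, adjusted p = 0.00196). In glycogen metabolism 6 of 22 genes rose (3 to 4 without a library) and 1 fell (0 to 1). These were 27.3 percent higher and 4.55 percent lower, against 6.64 and 8.84 percent of all tested genes. Ppp1r3c, which targets phosphatase to glycogen and favours its storage, stood at 133 and 136 CPM with DMSO, 266 and 264 with ZLN005 and 219.9 and 231 with GW501516 (0.98 ± 0.05, adjusted p = 9.01e-07 against DMSO). Pygb, a phosphorylase that breaks glycogen down, rose too, from 199 and 199 to 283 and 294 CPM (0.54 ± 0.05, adjusted p = 5.67e-05).

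Nuclear genes of the respiratory chain had small positive median changes. Of 42 genes of complexes II to V, 24 rose and 1 fell, with a median log2 change of 0.22. Of 36 genes of complex I, 8 rose and 0 fell, with a median of 0.20. These calls depended on which library was left out: in complexes II to V they numbered 2 without DMSO replicate 1, 24 without DMSO replicate 2, 5 without ZLN005 replicate 1 and 16 without ZLN005 replicate 2. In complex I the same fits gave 1, 10, 2 and 3. Cox8a, a subunit of cytochrome oxidase, was called in all 4 fits, at 85.98 and 85.9 CPM with DMSO and 106 and 104 with ZLN005 (0.29 ± 0.04, adjusted p = 0.000961). So was Ndufa11, an accessory subunit of complex I, at 20.2 and 22.6 CPM with DMSO and 28.9 and 28.7 with ZLN005 (0.43 ± 0.08, adjusted p = 0.00398). The tricarboxylic acid cycle and pyruvate entry gave 8 of 31 higher (2 to 4 without a library), with Fh1, the fumarase, at 52.2 and 55.01 CPM with DMSO and 70.3 and 67.2 with ZLN005 (0.36 ± 0.06, adjusted p = 0.00195). The rises in the cycle list were 25.8 percent, against 6.64 percent of all tested genes. Mfn2, which fuses mitochondria and tethers them to the reticulum, went from 118 and 111 to 145 and 138 CPM (0.31 ± 0.05, adjusted p = 0.00265). Mitochondrial ribosome genes gave 5 of 70 higher (1 to 3 without a library), close to the 6.64 percent of all tested genes. Genes encoded in mitochondrial DNA did not share the rise. Of 13 tested out of 26 listed, 4 fell (30.8 percent against 8.84 percent of all tested genes) and 0 rose. Their median log2 change was −0.079. Fewer of the falls were called when a library was left out, and DESeq2 called 4 lower and 1 higher. Together these genes held 2.43 and 2.44 percent of counts with DMSO and 2.43 and 2.62 with ZLN005, so their summed share did not fall.

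The aryl hydrocarbon receptor, a ligand-activated factor that induces enzymes of xenobiotic metabolism, had targets that fell and others that did not. Cyp1b1 (GRCm38 chr17:79701537-79715061, minus strand) stood at 79.1 and 78.2 CPM with DMSO, 16.4 and 16.3 with ZLN005 and 57.1 and 56.1 with GW501516 (−2.27 ± 0.07, adjusted p = 3.65e-08 against DMSO, and −1.79 ± 0.07, adjusted p = 1.75e-07 against GW501516). Ahrr, a repressor that the receptor induces, went from 2.35 and 2.26 to 0.545 and 0.548 CPM (−2.07 ± 0.26, adjusted p = 0.000521). Tiparp (35.7 and 35.9 CPM with DMSO and 33.4 and 35.2 with ZLN005, adjusted p = 0.483) and Nqo1 (7.87 and 8.97 CPM with DMSO and 8.33 and 8.38 with ZLN005, adjusted p = 0.971), also on the target list, did not pass. Neither did the receptor Ahr itself (3.02 and 3.71 CPM with DMSO and 2.70 and 2.98 with ZLN005, adjusted p = 0.364). Xdh, xanthine dehydrogenase, rose from 86.1 and 82.1 to 101 and 101 (0.26 ± 0.04, adjusted p = 0.00268). Of 11 tested list members, 2 rose (1 without a library) and 3 fell (3). The dioxin response element TNGCGTG was found in 1 of 8 with a promoter in the table, against 8.67 percent of 12117 tested genes.

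Extracellular matrix lists held more falls than rises. Of 31 genes of glycoproteins and microfibrils, 23 fell (18 to 20 without a library) and 1 rose (0 to 1), with a median log2 change of −0.70. Of 35 collagen genes, 18 fell (12 to 14) and 4 rose (0 to 1), with a median of −0.36. Of 23 genes that modify and crosslink collagen, 17 fell (7 to 13) and 0 rose. Fn1, fibronectin (GRCm38 chr1:71585520-71653200, minus strand), stood at 16152 and 15373 CPM with DMSO, 8669.8 and 9049 with ZLN005 and 13099 and 13387 with GW501516 and had the largest fall in CPM under the naming rule (−0.83 ± 0.09, adjusted p = 0.000208). Eln, elastin, went from 2685 and 2581 to 1367 and 1374 CPM (−0.94 ± 0.09, adjusted p = 8.98e-05). Fbn1, the microfibril protein fibrillin 1, went from 1386 and 1295 to 785 and 810.0 (−0.75 ± 0.08, adjusted p = 0.000247). Thbs1, a matricellular activator of latent TGF-beta, went from 4652 and 4582 to 2787 and 2881 (−0.70 ± 0.10, adjusted p = 0.00128). Postn, periostin of activated fibroblasts, stood at 1101 and 1107 CPM with DMSO and 1089 and 1083 with ZLN005 and did not pass (adjusted p = 0.803).

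Among fibril collagens, the chains of types I and III fell. Col1a1, like Col1a2 a chain of type I collagen, stood at 7985 and 7668 CPM with DMSO and 4519 and 4701 with ZLN005 (−0.76 ± 0.07, adjusted p = 0.00011). Col1a2 stood at 4698 and 4646 CPM with DMSO and 2452 and 2516 with ZLN005 (−0.91 ± 0.07, adjusted p = 2.24e-05). Col3a1 stood at 1994 and 1959 CPM with DMSO and 1213 and 1221 with ZLN005 (−0.70 ± 0.06, adjusted p = 4.69e-05). Col5a2, a chain that nucleates type I fibrils, stood at 5642 and 5589 CPM with DMSO and 3142 and 3188 with ZLN005 (−0.83 ± 0.08, adjusted p = 0.00013). Col11a1, another fibril-nucleating chain, stood at 355 and 352 CPM with DMSO, 121 and 121 with ZLN005 and 368 and 372 with GW501516 (−1.55 ± 0.08, adjusted p = 1.9e-06 against DMSO, and −1.61 ± 0.08, adjusted p = 2.01e-06 against GW501516). Col15a1, a basement membrane collagen, stood at 242 and 230.3 CPM with DMSO, 103 and 106 with ZLN005 and 68.4 and 66.4 with GW501516 (−1.18 ± 0.11, adjusted p = 6.56e-05 against DMSO) and was lower still with GW501516 (0.63 ± 0.11, adjusted p = 0.00738). Lox, like Loxl3 an oxidase that crosslinks collagen and elastin, stood at 3549.7 and 3576 CPM with DMSO and 1851 and 1824 with ZLN005 (−0.95 ± 0.09, adjusted p = 6.45e-05). Loxl3 stood at 281 and 285 CPM with DMSO and 134 and 133 with ZLN005 (−1.09 ± 0.06, adjusted p = 1.91e-06). Plod2, which hydroxylates collagen lysines for crosslinking, went from 718 and 735 to 516 and 526 CPM (−0.48 ± 0.06, adjusted p = 0.000619). P4ha3, a prolyl hydroxylase, went from 33.5 and 37.04 to 15.2 and 17.2 (−1.12 ± 0.09, adjusted p = 3.34e-05). Bgn, the proteoglycan biglycan, stood at 7738 and 7654 CPM with DMSO and 5612 and 5811 with ZLN005 (−0.43 ± 0.07, adjusted p = 0.00365), whereas Dcn, the related decorin, stood at 113 and 121 CPM with DMSO and 119 and 121 with ZLN005 (adjusted p = 0.621). Sparc, a collagen-binding glycoprotein, stood at 9349 and 9536 CPM with DMSO and 7612 and 7810.4 with ZLN005 (−0.29 ± 0.09, adjusted p = 0.0447), a call lost for Sparc without any of the 4 libraries (adjusted p between 0.149 and 0.216).

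Matrix turnover and TGF-beta genes fell in part. Of 34 matrix proteases and inhibitors, 15 fell (9 to 11 without a library) and 4 rose (2 to 4). Mmp2, a gelatinase of fibroblasts, stood at 464 and 449 CPM with DMSO and 338 and 328 with ZLN005 (−0.46 ± 0.06, adjusted p = 0.00103). Mmp12, the macrophage elastase, went from 62.1 and 59.4 to 14.9 and 14.3 CPM (−2.06 ± 0.10, adjusted p = 1.45e-06). Of 28 TGF-beta pathway genes, 10 fell (6 to 8) and 3 rose (1 to 2). Nox4, an NADPH oxidase that TGF-beta induces in fibroblasts, stood at 48.8 and 46.3 CPM with DMSO, 14.00 and 14.7 with ZLN005 and 27.8 and 27.7 with GW501516 (−1.72 ± 0.09, adjusted p = 1.44e-06 against DMSO, and −0.95 ± 0.09, adjusted p = 0.000138 against GW501516). Ltbp2, a microfibril-associated relative of the latent TGF-beta binding proteins, went from 256 and 249.7 to 117 and 123 (−1.07 ± 0.09, adjusted p = 5.29e-05). Fst, the activin inhibitor follistatin, stood at 166 and 170.2 CPM with DMSO, 213 and 206 with ZLN005 and 91.5 and 88.9 with GW501516, higher than DMSO with ZLN005 (0.32 ± 0.04, adjusted p = 0.000789) and lower than DMSO with GW501516 (−0.90 ± 0.04, adjusted p = 8.43e-07). Tgfb2, a TGF-beta ligand, stood at 467 and 468 CPM with DMSO and 523 and 530.0 with ZLN005 (adjusted p = 0.212). It passed as a rise when either of the CF libraries was omitted (adjusted p = 0.000157 and 0.000221).

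Fibroblast identity genes did not fall as a block. Of 32 tested, 12 fell (5 to 9 without a library) and 2 rose (2). Pdgfra, the receptor that marks cardiac fibroblasts, stood at 79.3 and 83.6 CPM with DMSO and 63.5 and 65.5 with ZLN005 (−0.34 ± 0.05, adjusted p = 0.00236), and CF held 614 and 661 CPM. Islr, a surface protein of mesenchymal stromal cells, went from 24.8 and 23.1 to 8.30 and 9.27 (−1.44 ± 0.11, adjusted p = 1.94e-05). Cd34, of progenitor-like fibroblasts and endothelium, went from 30.7 and 27.7 to 18.5 and 19.4 (−0.62 ± 0.07, adjusted p = 0.000321). The 2 that rose were Thy1, a surface glycoprotein of fibroblasts (427 and 420.4 CPM with DMSO and 618 and 628 with ZLN005, 0.56 ± 0.09, adjusted p = 0.00238), and Dpt, the matrix protein dermatopontin (7.89 and 7.82 CPM with DMSO and 10.3 and 11.04 with ZLN005, 0.44 ± 0.08, adjusted p = 0.00325). Acta2, smooth muscle actin of myofibroblasts, stood at 3371 and 3424 CPM with DMSO and 3383 and 3313 with ZLN005 (adjusted p = 0.946). Igfbp5, a binding protein of insulin-like growth factors, stood at 557 and 534 CPM with DMSO, 1035 and 1084 with ZLN005 and 628 and 627 with GW501516 and was higher with ZLN005 than in either other group (0.96 ± 0.14, adjusted p = 0.00129 against DMSO, and 0.76 ± 0.14, adjusted p = 0.00963 against GW501516). Igfbp4, a relative, fell from 26.7 and 29.3 to 7.68 and 7.36 CPM (−1.90 ± 0.06, adjusted p = 7.61e-08). Igf1, the growth factor, went from 66.3 and 67.7 to 32.9 and 35.96 (−0.96 ± 0.08, adjusted p = 2.57e-05).

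Macrophage genes had the lowest median change of the 61 lists. Of 29 tested, 24 fell (4 to 14 without a library) and 0 rose, with a median log2 change of −2.87. GW501516 against DMSO, which shares the DMSO libraries, had a median of −2.74 in this list. Between ZLN005 and GW501516, 0 of the 29 were called. With limma-voom 5 of the 29 were called, and the named macrophage genes Cx3cr1, Stab1, Fcgr2b, C5ar1 and Csf1r were not (adjusted p between 0.0768 and 0.23), while DESeq2 called 24. Cx3cr1, the fractalkine receptor of resident macrophages, stood at 35.96 and 33.6 CPM with DMSO, 1.76 and 1.35 with ZLN005 and 1.59 and 2.41 with GW501516 (−4.50 ± 0.71, adjusted p = 0.0022 against DMSO). Stab1, a scavenger receptor, went from 45.7 and 44.2 to 1.39 and 2.16 CPM (−4.62 ± 0.71, adjusted p = 0.0019). Fcgr2b, the inhibitory antibody receptor, went from 13.98 and 15.01 to 0.694 and 0.530 (−4.58 ± 0.71, adjusted p = 0.00205). C5ar1, the complement C5a receptor, went from 19.8 and 17.8 to 0.694 and 0.804 (−4.63 ± 0.69, adjusted p = 0.00165). In each of these genes both ZLN005 libraries were far below both DMSO libraries. Csf1r, the receptor on which macrophages depend, stood at 65.9 and 65.6 CPM with DMSO and 5.30 and 6.07 with ZLN005 (−3.52 ± 0.60, adjusted p = 0.00344), a call lost for Csf1r without ZLN005 replicate 1 (adjusted p = 0.0517). The naming rule also took Tifab (6.01 and 4.997 CPM falling to 0.149 and 0.171, −5.07 ± 0.81, adjusted p = 0.00232) and Bin2 (6.89 and 8.14 falling to 0.297 and 0.342, −4.53 ± 0.74, adjusted p = 0.00253). Mrc1, the mannose receptor, went from 57.2 and 57.5 to 1.51 and 1.88 CPM (−5.05 ± 1.13, adjusted p = 0.0135). Il21r, the interleukin 21 receptor, went from 5.16 and 5.20 to 0.0991 and 0.171 (−5.18 ± 1.02, adjusted p = 0.00723). Fcrls went from 69.1 and 68.8 to 1.16 and 1.75 (−5.53 ± 0.98, adjusted p = 0.00408). Nxpe5 went from 9.87 and 9.63 to 0.0991 and 0.188 (−5.99 ± 1.37, adjusted p = 0.0151). Calls were lost for Mrc1 without any of the 4 libraries (adjusted p between 0.0505 and 0.116), Fcrls without ZLN005 replicate 1 (adjusted p = 0.0578) or ZLN005 replicate 2 (adjusted p = 0.0548), Il21r without ZLN005 replicate 1 (adjusted p = 0.082) or ZLN005 replicate 2 (adjusted p = 0.075) and Nxpe5 without any of the 4 libraries (adjusted p between 0.0516 and 0.121). With limma-voom none of these 6 genes was called (adjusted p between 0.165 and 0.609). The fit estimated spread over all 10 libraries, and the CF pair differed widely in these genes. In CF, Mrc1 had a mean of 184 CPM with a standard deviation of 228, and Nxpe5 34.7 with 44.2. The standard deviations of Mrc1 were 0.260 with DMSO and 0.262 with ZLN005, and those of Nxpe5 0.165 and 0.0630. The part of the CF pair in these standard errors and lost calls was not tested. Ccr2, a receptor of recruited monocytes, had 143 counts over the DMSO libraries and none over the ZLN005 libraries, at least 44.6-fold lower against a floor of 3 counts over the group. The list median with Ccr2 at that bound was −2.87 as well.

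Some chemokines and other inflammatory mediators fell. Of 32 chemokines and cytokines, 14 fell (6 to 11 without a library) and 0 rose, and limma-voom called 7 lower and 1 higher. Some are known from stromal cells: Cxcl12, which retains blood progenitors, went from 610.5 and 635 to 339 and 326 CPM (−0.90 ± 0.06, adjusted p = 8.77e-06). Csf1, the growth factor for macrophages, went from 798 and 783 to 599.6 and 607 (−0.39 ± 0.05, adjusted p = 0.000578). Cx3cl1, the ligand of Cx3cr1, went from 59.7 and 56.6 to 27.1 and 28.2 (−1.07 ± 0.11, adjusted p = 0.000135). Ccl9, a chemokine of myeloid cells, stood at 24.1 and 25.2 CPM with DMSO, 4.31 and 4.62 with ZLN005 and 15.6 and 13.8 with GW501516 (−2.46 ± 0.38, adjusted p = 0.00205 against DMSO, and −1.72 ± 0.39, adjusted p = 0.031 against GW501516). Prostaglandin genes gave 7 of 18 lower (3 to 4) and 1 higher (1), and limma-voom called 1 lower. Ptgfr, the receptor for prostaglandin F2 alpha, was the member that rose, at 19.97 and 21.6 CPM with DMSO, 52.6 and 50.9 with ZLN005 and 36.5 and 37.2 with GW501516 (1.31 ± 0.07, adjusted p = 2.55e-06 against DMSO, and 0.49 ± 0.07, adjusted p = 0.00318 against GW501516). Hpgd, which inactivates prostaglandins, fell from 10.5 and 10.4 to 0.595 and 0.753 (−3.93 ± 0.49, adjusted p = 0.000555). Ptgs2, the inducible cyclooxygenase, stood at 10.8 and 11.6 CPM with DMSO and 9.56 and 9.09 with ZLN005 (adjusted p = 0.0571). Ptgs2 passed as a fall with DESeq2 (adjusted p = 0.0363) and with either of the CF libraries omitted (0.00365 and 0.00329). The limma-voom fit called neither Hpgd (adjusted p = 0.139) nor Ccl9 (adjusted p = 0.0691). Complement genes gave 7 of 18 lower (3 to 4).

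Most genes of mitosis fell, and most genes of DNA replication did not pass the test. Of 51 genes of mitosis, 37 fell (17 to 21 without a library) and 1 rose, with a median log2 change of −0.44. Of 38 genes of replication, 10 fell (1 to 2) and 0 rose, with a median of −0.23. The difference between the lists was not tested. Many mitotic promoters carry the cell cycle homology region, TTTGAA, through which the DREAM and MuvB complexes act. The promoters of a proliferation antigen gene (Mki67) and of topoisomerase II alpha (Top2a) are shown, chosen because both hold it, in the same layout as above, with TTTGAA, or TTCAAA where it lies on the other strand, in capitals.
Mki67, chr7:135716330-135716629, minus strand: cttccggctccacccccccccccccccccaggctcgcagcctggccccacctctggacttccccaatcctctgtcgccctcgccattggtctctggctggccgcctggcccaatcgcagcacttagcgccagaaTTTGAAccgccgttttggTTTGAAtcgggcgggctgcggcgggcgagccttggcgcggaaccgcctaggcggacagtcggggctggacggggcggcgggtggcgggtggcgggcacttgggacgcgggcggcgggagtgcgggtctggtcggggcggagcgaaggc
Top2a, chr11:99024140-99024439, minus strand: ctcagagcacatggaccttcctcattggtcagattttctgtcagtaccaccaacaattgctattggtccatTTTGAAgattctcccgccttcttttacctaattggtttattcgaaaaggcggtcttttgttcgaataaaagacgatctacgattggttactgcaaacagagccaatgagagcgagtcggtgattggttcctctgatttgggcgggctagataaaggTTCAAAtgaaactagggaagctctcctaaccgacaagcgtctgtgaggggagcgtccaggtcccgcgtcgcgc
TTTGAA on either strand was found in 28 of 43 mitotic genes that had a promoter in the table, against 14.9 percent of 12117 tested genes and 17.9 percent of all promoters. CCAAT was found in 28 of the 43 as well.

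Mki67 stood at 57.8 and 53.2 CPM with DMSO and 28.99 and 26.8 with ZLN005 (−0.99 ± 0.13, adjusted p = 0.000797) and Top2a at 55.3 and 53.98 CPM with DMSO and 34.2 and 34.3 with ZLN005 (−0.67 ± 0.09, adjusted p = 0.000875). Ccnb1, the cyclin that starts mitosis, went from 16.9 and 15.2 to 10.6 and 9.82 CPM (−0.65 ± 0.09, adjusted p = 0.00128). Bub1, a spindle checkpoint kinase, went from 10.5 and 11.4 to 5.75 and 5.95 (−0.90 ± 0.15, adjusted p = 0.00303). Mcm5, a helicase subunit at replication origins, went from 20.8 and 21.2 to 11.2 and 13.1 (−0.78 ± 0.13, adjusted p = 0.00257). Cenpa, the centromere histone, was the mitotic gene that rose, at 76.2 and 75.3 CPM with DMSO and 119 and 125 with ZLN005 (0.69 ± 0.06, adjusted p = 6.47e-05). The CM libraries, taken at day 3, held more than CF of 49 of the 51 mitotic genes, against 34.5 percent of all tested genes. The fall of mitotic genes thus ran against the difference between CM and CF. The cycle inhibitors Cdkn1a and Cdkn2a changed in opposite directions. Cdkn1a, the p21 inhibitor induced by p53, stood at 558 and 552 CPM with DMSO, 749.8 and 779 with ZLN005 and 641 and 626 with GW501516 (0.46 ± 0.04, adjusted p = 7.04e-05 against DMSO, and 0.27 ± 0.04, adjusted p = 0.004 against GW501516). Cdkn2a, which encodes p16 and p19, stood at 8.004 and 7.11 CPM with DMSO, 3.35 and 4.55 with ZLN005 and 7.35 and 7.73 with GW501516 (−0.93 ± 0.16, adjusted p = 0.00391 against DMSO, and −0.93 ± 0.16, adjusted p = 0.00836 against GW501516). In a list of 29 p53 targets and cycle regulators, 7 rose (24.1 percent) and 2 fell (6.9 percent), against 6.64 and 8.84 percent of all tested genes. The falls were thus near the share over all genes. Fewer of the rises were called when a library was left out.

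Some interferon and antigen presentation genes rose, while most did not pass the test. Of 37 genes of the type I response, 14 rose (4 to 5 without a library) and 1 fell (0 to 1). Of 29 class I, class II and GTPase genes, 7 rose (2 to 3) and 1 fell (0). H2-K1, a class I heavy chain, stood at 225 and 236 CPM with DMSO, 372 and 364 with ZLN005 and 463 and 449 with GW501516 (0.68 ± 0.09, adjusted p = 0.00104 against DMSO). Ifit3, an antiviral effector, stood at 196 and 197 CPM with DMSO and 323 and 315 with ZLN005 (0.70 ± 0.11, adjusted p = 0.00184). Bst2, which tethers budding virus, went from 219 and 234 to 321 and 304 CPM (0.47 ± 0.07, adjusted p = 0.00116). Irgm2, an immunity-related GTPase, went from 116 and 114 to 159 and 158 (0.46 ± 0.06, adjusted p = 0.00102). CF held more than CM of 36 of the 37 interferon genes, against 36.2 percent of all tested genes. The interferon response element GAAANNGAAA was found on either strand in 12 of 24 of these genes with a promoter in the table, against 3.8 percent of 12117 tested genes.

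Notch, Wnt, imprinted and endoplasmic reticulum lists held more falls than rises, as did all tested genes (8.84 against 6.64 percent). In that order, falls made up 31.2, 27.5, 56.2 and 31.6 percent of the lists, and rises 0, 7.5, 6.25 and 0 percent. In the Notch list 5 of 16 genes fell (3 without a library) and 0 rose. Heyl, a target repressor, went from 35.1 and 32.8 to 12.3 and 10.3 CPM (−1.59 ± 0.14, adjusted p = 6.07e-05). Notch3, a receptor of mural cells, went from 42.01 and 42.2 to 26.2 and 23.8 (−0.76 ± 0.11, adjusted p = 0.00168). In the Wnt list 11 of 40 fell (3 to 5) and 3 rose (2 to 3). Secreted Wnt antagonists were divided. Sfrp1 fell from 19.3 and 21.2 to 10.7 and 10.5 CPM (−0.94 ± 0.07, adjusted p = 1.14e-05). Frzb fell from 53.9 and 53.7 to 35.6 and 35.1 (−0.61 ± 0.05, adjusted p = 3.3e-05). Dkk3, a Dickkopf relative, rose from 57.1 and 59.2 to 97.3 and 97.5 (0.74 ± 0.08, adjusted p = 0.000161). Axin2, a common readout of canonical Wnt signalling, stood at 4.06 and 2.66 CPM with DMSO and 4.68 and 5.18 with ZLN005 (adjusted p = 0.0964), which became 0.0167 or 0.0184 with either of the CF libraries omitted. Among 16 imprinted genes 9 fell (5 to 6) and 1 rose (0 to 1). Meg3, a maternally expressed long noncoding RNA, stood at 650.3 and 628 CPM with DMSO and 314 and 325 with ZLN005 (−1.002 ± 0.06, adjusted p = 5.14e-06). Plagl1, a paternally expressed zinc-finger factor, stood at 29.9 and 36.3 CPM with DMSO and 17.4 and 15.6 with ZLN005 (−1.01 ± 0.12, adjusted p = 0.000314). Folding genes of the endoplasmic reticulum gave 6 of 19 lower (3 to 4) and 0 higher. Hsp90b1, the chaperone GRP94, stood at 639 and 655 CPM with DMSO and 509 and 519.9 with ZLN005 (−0.33 ± 0.04, adjusted p = 0.000771). Ddit3, a factor of the stress response, rose from 40.9 and 46.6 to 64.97 and 67.00 (0.59 ± 0.07, adjusted p = 0.000362).

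The change with ZLN005 was set beside the difference between CM and CF, which uses none of these 4 libraries. Between CM and CF, 11131 of 15740 genes were called (70.7 percent), with 34.5 percent higher in CM and 36.2 percent higher in CF. Of the 1045 genes called higher with ZLN005, 652 were higher in CM (62.4 percent) and 285 higher in CF (27.3 percent). Of the 1392 called lower, 837 were higher in CF (60.1 percent) and 385 higher in CM (27.7 percent). Among changes beyond 1 on the log2 scale the split was wider: 82 of 106 rising genes were higher in CM and 11 higher in CF, and 324 of 441 falling genes were higher in CF and 62 higher in CM. Across 15740 genes the log2 changes correlated at 0.34 (Pearson) and 0.211 (Spearman), as a description over genes, which are not independent replicates. Day and cell type differ together between CM and CF, and the CF libraries differed in their macrophage genes.

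**Figure D5:**
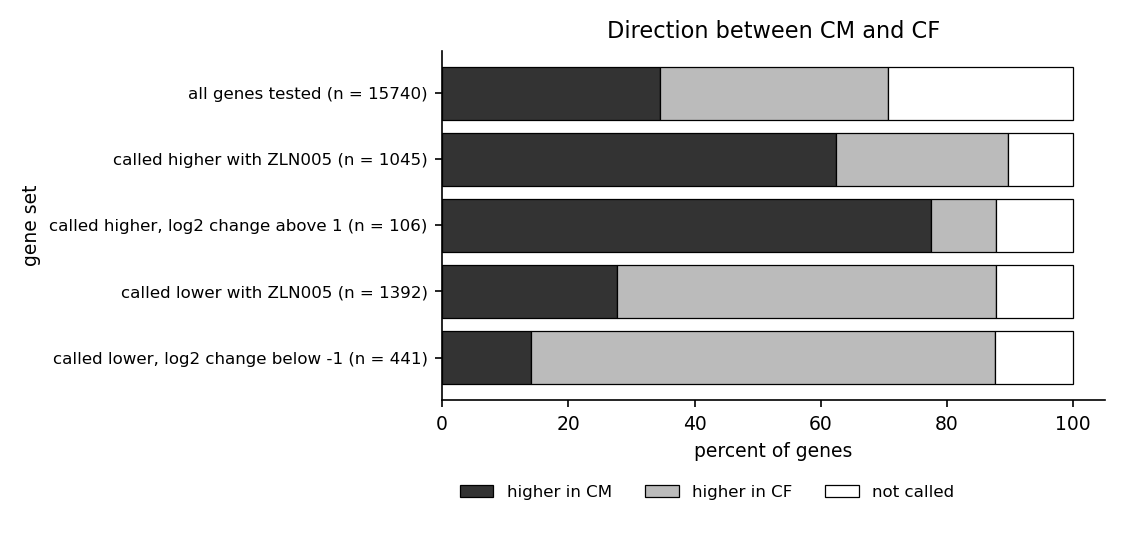
Percent of genes that were higher in CM (dark), higher in CF (light) or not called between CM and CF (white), for all tested genes and for genes called higher or lower with ZLN005, with and without a minimum log2 change of 1; bars start at 0. Genes called higher are mostly higher in CM (62.4 percent), and genes called lower mostly higher in CF (60.1 percent).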

How the data were processed

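Polyadenylated RNA was sequenced in 10 libraries, 2 in each of 5 groups, of which the ZLN005 and DMSO libraries are described here. The deposited table holds raw counts for 21513 gene symbols. The submitters' processing notes name Trimmomatic 0.36, HISAT2, SAMtools, featureCounts, Subread 1.5.1 and the build mm10 as what the authors used to make these counts. The sources used here give no strand setting, annotation or treatment of multiply mapped reads, so overlapping genes and near-identical copies are uncertain. Some genes are not reported here.

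Counts were scaled by TMM, filtered with filterByExpr to 15740 genes and fitted over all 10 libraries as 5 groups with edgeR's quasi-likelihood test (edgeR 4.0.16, R 4.3.3), with Benjamini-Hochberg adjustment over all tested genes. A standard error is the size of the log2 change divided by the root of its F statistic. The members, the 61 gene lists and the tests were chosen with earlier results of these data known, so no list is independent support. Named genes followed a rule: 6 study genes, then the 10 largest rises and 10 largest falls by log2 change and by CPM difference among called genes with at least 5 CPM and no overlap of groups (predicted and clone names left out), then up to 5 called list members with the smallest p, plus members that complete an account. Promoters are from RefSeq (GRCm38.p6) and gene positions from GENCODE (GRCm38). Alternatives were DESeq2 1.42.0, limma-voom (limma 3.58.1), other scalings, filters, sample sets and thresholds, a replicate block, and leaving out each library. Leaving out a CF library in comparisons without CF was chosen after seeing the data. The 4 totals of 39065969 to 56923512 counts set the counting precision; the floor for a gene without counts covers counting error only. Figures were drawn with matplotlib 3.10.9.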

Additional observations from a re-analysis of the deposited data

How the results depend on the processing

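No gene called with ZLN005 against DMSO was called in the opposite direction under any alternative. The 2437 calls (1045 higher, 1392 lower) numbered 1092 to 1300 when a library was left out (477 to 588 higher, 571 to 712 lower), 1211 at an adjusted p under 0.01 (527 and 684), 4477 when only the 2 groups were fitted (2076 and 2401), 4455 with the 3 reprogramming groups (2133 and 2322), 4271 without CF replicate 1 (2006 and 2265) and 4246 without CF replicate 2 (1928 and 2318). DESeq2 called 2544 and limma-voom 2084. ZLN005 against GW501516 gave 796 calls, 344 to 384 when a library was left out, 439 at 0.01, 2413 with only these groups, 2350 with the reprogramming groups, and 2145 and 2137 without CF replicate 1 and 2. The list counts, 631 calls over all list members, ran from 340 to 416 when a compared library was left out, came to 392 at 0.01, and to 886 and 882 without CF replicate 1 and 2. The CF replicates correlated least of the 5 groups (Pearson 0.984); the cause of these changes was not tested. The CF alternatives were chosen after seeing the data.

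Whether same-numbered libraries were paired is not stated. Same-numbered deviations correlated at 0.00289 between DMSO and ZLN005 over all tested genes. That value includes genes with few counts, whose counting error can hide a shared part, so it does not settle the question. With the replicate number as a block in ZLN005 against DMSO, 2252 genes were called (960 and 1292). Genes that did not pass changed sign around 0: the log2 change of Plin2 was 0.003 with DESeq2 and with its size factors and ran from −0.045 to 0.043 when a library was left out, that of Nqo1 was 0 with both and ran from −0.1 to 0.091, that of Dcn ran from −0.007 to 0.097, that of Mef2c from −0.009 to 0.158, that of Myh7 from −0.064 to 0.136 and that of Myog from −1.281 to 0.92. The cause was not tested. With 2 libraries a group, small changes such as those of mitochondrial genes depended on single libraries, which depth cannot mend.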

Other observations

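Lists outside the main comparisons held some further changes. In the epicardial and mesothelial list 5 of 14 genes rose (4 without a library) and 1 fell (0). Msln, mesothelin of the epicardial surface, went from 41.2 and 44.1 to 76.1 and 74.7 CPM (0.82 ± 0.07, adjusted p = 3.57e-05), and Upk1b, a uroplakin of mesothelium, from 49.8 and 52.01 to 74.2 and 70.5 (0.51 ± 0.08, adjusted p = 0.00236). In the smooth muscle and mural list 9 of 21 genes fell (5 to 6) and 4 rose (2 to 3). Falls were 42.9 percent and rises 19 percent of the list, against 8.84 and 6.64 percent of all tested genes. Rgs5, a pericyte regulator of G protein signalling, went from 9.49 and 9.81 to 2.78 and 2.33 CPM (−1.93 ± 0.22, adjusted p = 0.000314), and Cnn1, calponin, from 26.2 and 28.3 to 15.5 and 15.6 (−0.81 ± 0.14, adjusted p = 0.00303), while Tagln, a cytoskeletal protein of smooth muscle, rose from 11.9 and 12.3 to 24.7 and 23.2 (0.98 ± 0.10, adjusted p = 0.000166).

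Among growth factors, receptors and binding proteins 8 of 39 genes rose (7 without a library) and 12 fell (6 to 7). Rises were 20.5 percent and falls 30.8 percent of the list, against 6.64 and 8.84 percent of all tested genes. Fgf9, a fibroblast growth factor, went from 16.1 and 14.5 to 25.2 and 23.2 CPM (0.66 ± 0.09, adjusted p = 0.000857), and Hbegf, an EGF receptor ligand, from 139 and 143 to 179 and 177 (0.34 ± 0.05, adjusted p = 0.00112). Hgf, hepatocyte growth factor, fell from 8.80 and 7.90 to 5.50 and 5.32 and was lower than with GW501516 as well (−0.63 ± 0.10, adjusted p = 0.00256 against DMSO, and a log2 difference of −0.68 ± 0.10, adjusted p = 0.00316 against GW501516). Of the antioxidant genes, Gpx1, a glutathione peroxidase, fell from 148 and 153 to 115 and 109 CPM (−0.42 ± 0.04, adjusted p = 0.000111), Tkt, transketolase, fell from 96.9 and 97.05 to 71.4 and 69.02 (−0.47 ± 0.04, adjusted p = 6.39e-05), and Gstm1, a glutathione transferase, rose from 43.7 and 39.7 to 56.00 and 54.4 (0.40 ± 0.07, adjusted p = 0.00245). In the list of targets of the antioxidant factor NRF2, 3 of 29 rose (1 to 2) and 3 fell (2 to 3), near the shares over all tested genes. Map2, a microtubule protein best known from neurons, fell from 34.6 and 34.3 to 14.2 and 15.3 CPM (−1.22 ± 0.11, adjusted p = 5.26e-05).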
